A study of Mus musculus with 4 samples.

Results

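Transthyretin and 6 further genes that carry, import, activate, sense or respond to thyroid hormone were followed in the mouse hippocampus. They are Ttr, Slco1c1, Dio2, Thra, Thrb, Klf9 and Hr, found by gene symbol, and make up 7 of the 15713 genes in the deposited table. C57BL/6 mice whose label gives 5000 ppb ATO as a developmental exposure (2 libraries) were set against C57BL/6 mice labelled untreated (2 libraries). All came from hippocampus at 11 to 12 weeks of age. ATO is not spelled out in the labels, and the series title speaks of arsenic-exposed offspring. The sources used here give neither the route and window of exposure nor whether libraries came from separate litters, so the spread between replicates may be partly technical. The 7 genes were chosen by name and role, with their measured counts and fold changes between these libraries already known. Their own differences between ATO and control are therefore given as a description with no test.

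Thyroid hormone reaches the brain mainly as the prohormone thyroxine. Transthyretin, made in the choroid plexus, carries thyroxine in cerebrospinal fluid, and membrane transporters such as OATP1C1 (the product of Slco1c1) bring it into endothelial cells and astrocytes. The type 2 deiodinase encoded by Dio2, in the brain mainly an astrocyte enzyme, removes an iodine from thyroxine and so makes the active hormone T3. In neurons and glia T3 binds nuclear receptors encoded by Thra and Thrb, which switch target genes such as Klf9 and Hr. In the hippocampus the hormone is known for its part in maturation, myelination and adult neurogenesis.

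Library totals lay between 14832214 and 17251032 counts, so that 1 count stood for 0.0574 to 0.0678 normalised CPM (counts scaled by library size and a TMM factor). Genes at 0 counts numbered 0 and 1 in the ATO libraries and 7 and 8 in the controls, so detection of a marker does not check the hippocampal label. No other tissue was measured. All 10 listed marker genes of hippocampal neurons were counted in every library. Their summed level was 1140 and 1099.9 CPM in ATO and 1136 and 1057 CPM in control. Within that sum, 4 markers known from dentate granule cells had positive log2 fold changes, Npnt (0.43 ± 0.11, adjusted p = 0.0460 in edgeR's quasi-likelihood test), Prox1 (0.32), Dsp (0.30) and C1ql2 (0.27), of which only Npnt passed. Wfs1 (-0.42 ± 0.11, adjusted p = 0.0463 in the same test), Spink8 (-0.21) and Fibcd1 (-0.17), known from CA1 pyramidal cells, had negative values, and only Wfs1 passed. The remaining listed markers, Zbtb20 (0.13), Bok (0.04) and Neurod6 (-0.15), did not pass. Groups overlapped for Prox1, Spink8, Fibcd1, Zbtb20 and Bok. Under DESeq2's Wald test, with scaling by library size only, and without control replicate 2 or ATO replicate 1, 0 of the 10 passed, and the call of Wfs1 also ended without control replicate 1. The part of the sampled subfields in the results below was not tested. Markers of the choroid plexus, the epithelium of the ventricles that secretes cerebrospinal fluid, differed most between the groups and are given beside Ttr. With 2 libraries a group, an exact permutation test of a single value cannot give a two-sided p below 0.333. In bulk tissue, more cells of a type and more RNA per cell cannot be told apart.

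Of the 7 genes, 4 were higher in both ATO libraries than in both controls (Ttr, Dio2, Klf9 and Slco1c1), Thra was lower in both, and Thrb and Hr overlapped between the groups. Over all 15713 genes the groups were apart in this way for 48.1% of genes (24.8% higher and 23.4% lower in ATO). In edgeR's quasi-likelihood test fitted across all genes, those 4 genes also lay under an adjusted p of 0.05, as did 3.73% of all genes (2.87% higher, 0.859% lower). Since the genes were chosen with this contrast in view, nothing is read from that count. The median log2 fold change of the 7 was 0.31, against -0.0050 over all genes.

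**Figure D1:**
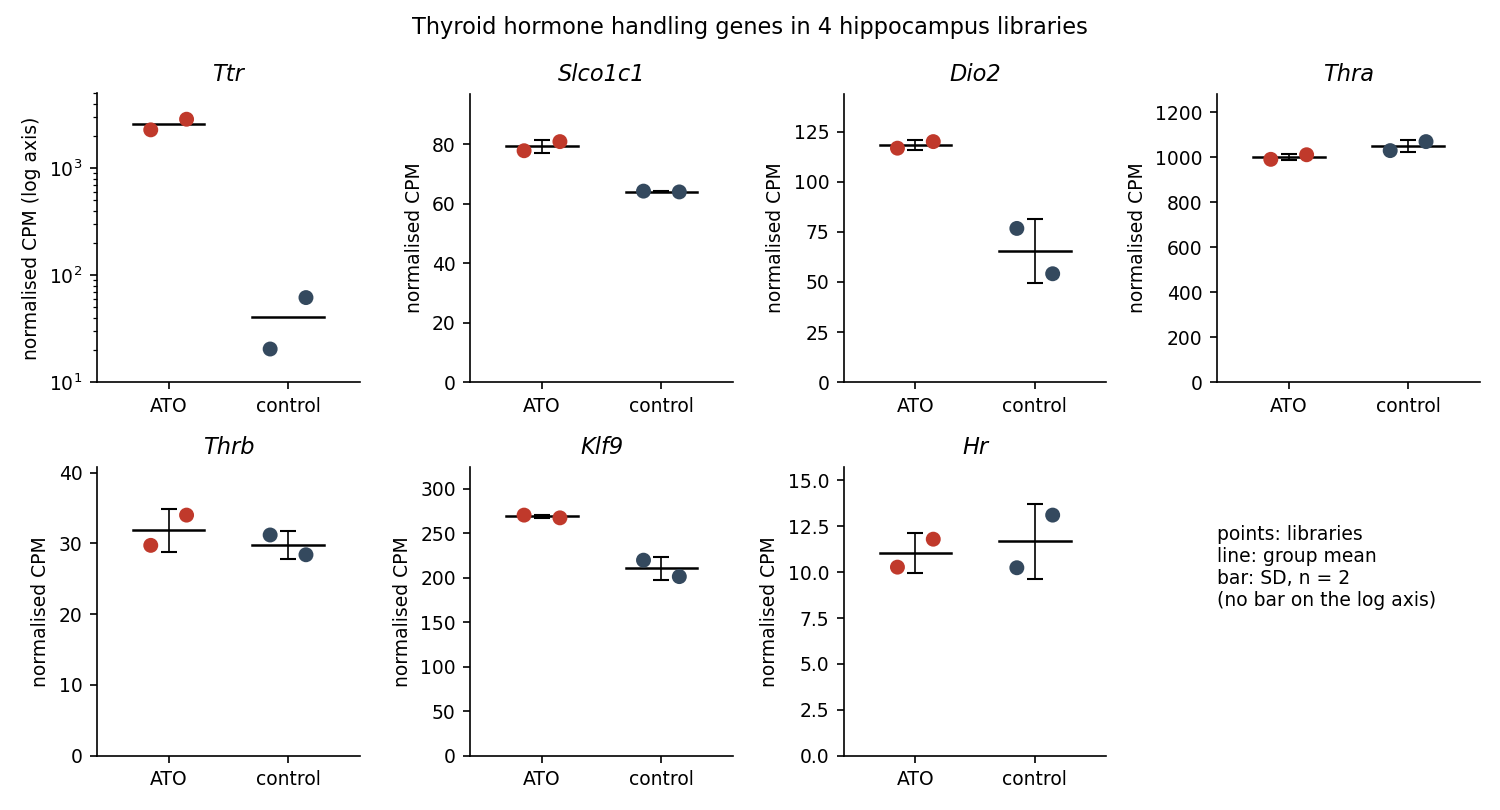
Normalised CPM of the 7 genes in each library, ATO (red) left of control (dark blue); lines are group means and bars are SD with n = 2 (no bar for Ttr, whose axis is logarithmic). Ttr, Slco1c1, Dio2 and Klf9 are higher in both ATO libraries than in both controls, Thra is slightly lower, and the points of Thrb and Hr overlap between the groups.

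On the deposited FPKM scale, which divides by gene length and so allows genes to be compared, the order of the 7 genes differed between the groups mainly through Ttr. In ATO the mean FPKM ran from Ttr at 2174 ± 327 (SD, n = 2) through Thra at 216.9 ± 0.870, Klf9 at 55.9 ± 1.03, Dio2 at 20.4 ± 0.184, Slco1c1 at 15.3 ± 0.262 and Thrb at 4.31 ± 0.361 to Hr at 1.595 ± 0.134, and no neighbours in this order overlapped. In control it ran from Thra at 226 ± 7.33 through Klf9 at 43.5 ± 2.46, Ttr at 34.6 ± 24.7, Slco1c1 at 12.3 ± 0.0354, Dio2 at 11.2 ± 2.67 and Thrb at 4.01 ± 0.247 to Hr at 1.68 ± 0.297. The control values of Ttr (17.1 and 52.05 FPKM) spanned those of Klf9 (45.3 and 41.8), and those of Dio2 (13.1 and 9.30) spanned those of Slco1c1 (12.3 in both), so these neighbours did not differ beyond their spread. Ranked by FPKM among all genes, Ttr stood at places 10 and 9 in ATO and at places 2936 and 844 in control. Thra kept to a narrow band, at places 105 and 107 in ATO and 107 and 109 in control.

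**Figure D2:**
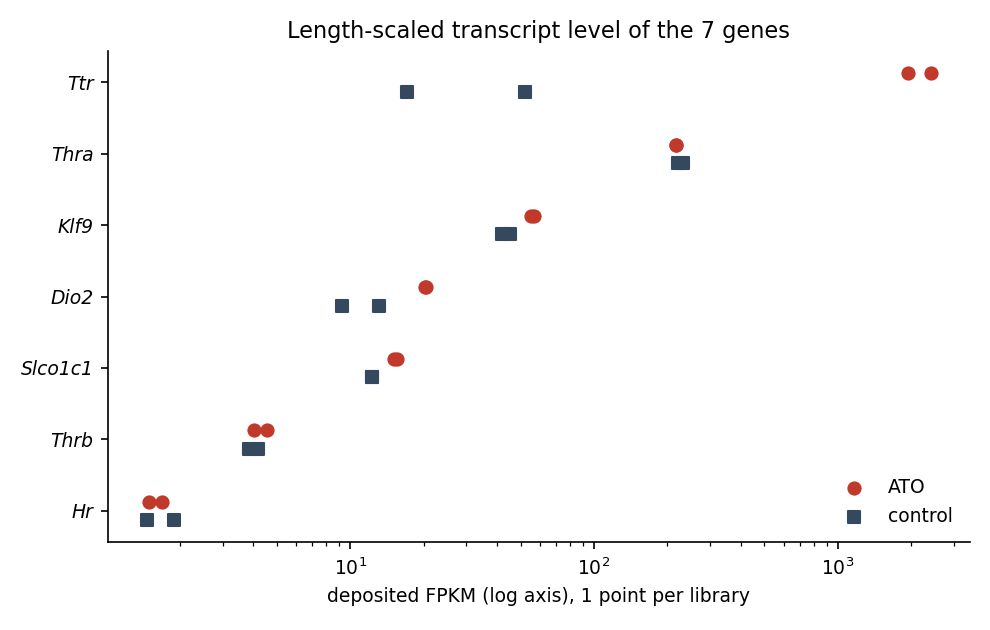
Deposited FPKM of the 7 genes on a logarithmic axis, 1 point per library, ATO as red circles above control as dark squares. Ttr spans from 17.1 FPKM in a control library to 2405 FPKM in an ATO library, while Thra, Thrb and Hr lie at nearly the same place in all 4 libraries.

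The hormone carrier was the gene of the set with the widest difference. Ttr (ENSMUSG00000061808, GRCm38 chromosome 18 from 20665280 to 20674321, plus strand, a protein-coding gene with 4 merged exons) had 39829 and 47729 counts in ATO, against 301 and 933 counts in control. Normalised, these were 2286 and 2873 CPM in ATO and 20.4 and 61.8 CPM in control. Both ATO libraries were far above both controls, and the lower ATO library stood 37.0-fold above the higher control. The controls differed 3.03-fold from each other and the ATO libraries 1.26-fold. The fitted log2 fold change was 5.97 ± 0.33 (SE), a 62.7-fold difference, and the ratio of summed counts had an exact binomial 95% interval from 58.8 to 65.9, which covers counting error only. The size rested on the controls: it was 5.39 (41.8-fold) without control replicate 1 and 6.98 (126-fold) without control replicate 2. Ttr alone took 0.231% and 0.286% of all counts in ATO, against 0.00203% and 0.00619% in control. The authors' deposited table gave a log2 fold change of 6.17 for Ttr.

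The marker lists were chosen with earlier results of these data known, so counts of markers that rose are not read as support. Only genes over 1 CPM in at least 2 libraries were held in the data. Folr1, Kcnj13, Otx2, Aqp1, Kcne2, Slc4a5, Cldn2, Tmem72 and Steap1 were below 1 CPM in both controls and so entered through ATO alone. Their higher level in ATO was set by that limit. All 20 choroid plexus markers other than Ttr rose in ATO in edgeR's test. Their log2 fold changes spanned 2.02 to 6.53 (median 4.096), and their summed level was 1121 and 1389 CPM in ATO against 133 and 163 CPM in control. None of the 20 was at 0 in any library. The most abundant was Enpp2, the gene of the lysophospholipase autotaxin, at 819.7 ± 136 CPM in ATO and 101 ± 20.04 CPM in control (n = 2 each, log2 3.02 ± 0.13, adjusted p = 1.25e-08), and Kl, which encodes klotho, rose by 2.33 ± 0.12 (adjusted p = 4.32e-08). The ratio of Ttr to a marker depended on the marker. It was higher in both ATO libraries than in both controls for 17 of the 20. It was lower for 1 (Tmem72), and overlapped for Folr1 and Slc4a5. Bulk counts do not tell how much of a marker's control level came from choroid plexus. Such ratios are therefore not levels of Ttr per choroid plexus cell. Per CPM of Enpp2, which made up 64.5% and 66.0% of the summed level in ATO and 65.3% and 70.7% in control, Ttr had 3.16 and 3.14 CPM in ATO, against 0.236 and 0.537 CPM in control. Per CPM of Tmem72 it had 134.6 and 133 CPM in ATO, against 150.5 and 155.5 CPM in control, nearly the same ratio, though Tmem72 had only 2 and 6 counts in control. The fold difference of Ttr lay above that of 18 of the 20 markers and below that of 2, Slc4a5 (a bicarbonate cotransporter, log2 6.53) and Tmem72 (a transmembrane protein, log2 6.13). Markers of ependymal cells, the ciliated lining of the ventricles, also moved: 7 of 12 rose and 0 fell, with a median of 1.21, among them the dynein light chain gene Dynlrb2 (2.56 ± 0.45, adjusted p = 0.00518) and the adenylate kinase gene Ak7 (1.77 ± 0.35, adjusted p = 0.0122). A fit lacking a library leaves 1 library in a group, whose spread is then assumed to be that of the other group, here and wherever such a fit is named. The number that passed was 3 of 12 under DESeq2's Wald test and in each fit lacking either control or ATO replicate 1. Among the 12, Dynlrb2 and Mia were below 1 CPM in both controls and so also entered the data through ATO alone. The summed ependymal level was 70.6 and 50.9 CPM in ATO and 31.9 and 34.4 CPM in control. What these markers contribute to the level of Ttr was not tested.

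**Figure D3:**
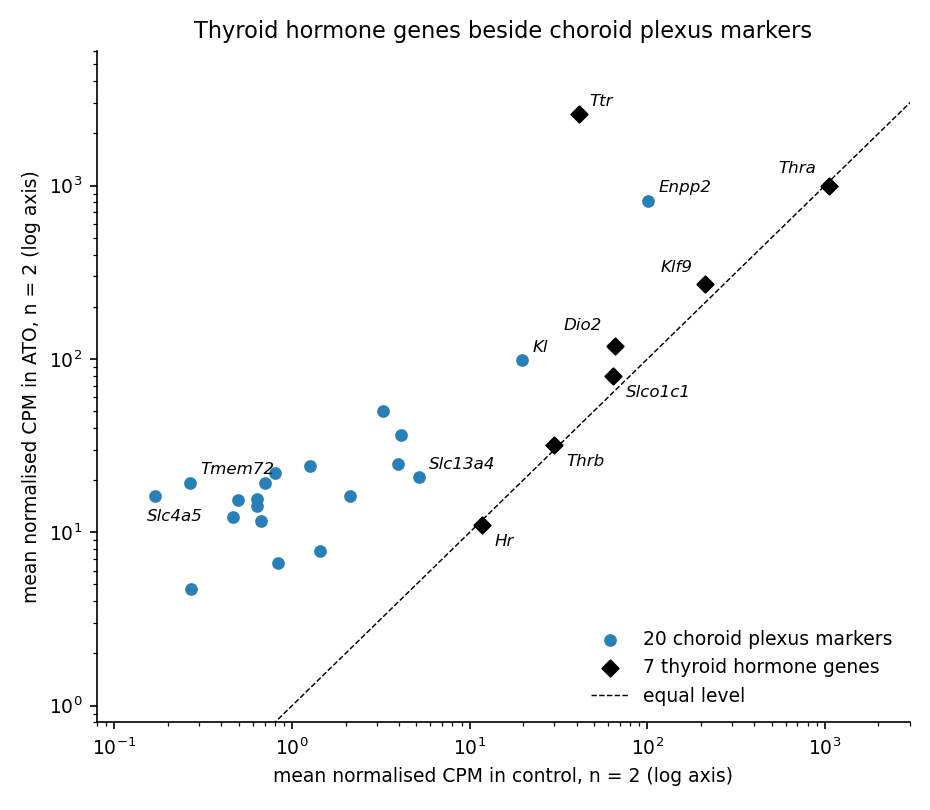
Mean normalised CPM in ATO (vertical) against control (horizontal), n = 2 each, both axes logarithmic, for the 7 thyroid hormone genes (black diamonds) and 20 choroid plexus markers (blue circles); the dashed line marks equal level. Ttr lies among the markers' folds, far above the line, whereas Dio2, Klf9 and Slco1c1 lie just above it and Thra, Thrb and Hr on it.

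Thyroxine import was represented by Slco1c1 (ENSMUSG00000030235, chromosome 6 from 141524368 to 141570177, plus strand), known from blood-brain barrier endothelium, astrocytes and choroid plexus. It had 77.9 and 81.0 CPM in ATO, against 64.3 and 64.03 CPM in control. The groups did not overlap, and the difference of log2 0.31 ± 0.08 (1.24-fold) was larger than the spread in either group. Its log2 fold change moved little when libraries were left out, from 0.28 to 0.34. Slco1c1 was not past the threshold under DESeq2's Wald test (adjusted p = 0.138) or limma-voom (adjusted p = 0.0541). Per 1000 CPM of a summed list of 13 astrocyte markers, Slco1c1 had 11.9 and 11.8 CPM in ATO and 9.54 and 9.90 CPM in control. Most of that sum came from Slc1a2 and Glul. Per 1000 CPM of 12 endothelial markers Slco1c1 had 174 and 184 CPM in ATO and 147 and 172 CPM in control. There the means differed by less than the 2 controls did from each other. That sum includes Slc2a1, the 1 listed marker that rose, at 136 and 128 CPM in ATO and 87.5 and 77.0 CPM in control. Kdr, the 1 that fell, had 13.3 and 12.5 CPM in ATO and 22.1 and 17.7 CPM in control. The ratio was not formed without Slc2a1.

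Of 7 other measured genes of thyroid hormone binding and transport, 0 passed in edgeR's test and 5 had an unadjusted p under 0.05. The smallest p was that of Slco1a4, which encodes an organic anion transporter of the blood-brain barrier: 45.4 and 39.7 CPM in ATO, against 71.8 and 48.7 CPM in control (log2 -0.50 ± 0.14, adjusted p = 0.0625). It was past the threshold in the fits lacking control replicate 2 (-0.76), ATO replicate 1 (-0.60) or ATO replicate 2 (-0.41), but not in that lacking control replicate 1, the library with its highest value. Slc16a10, which encodes the aromatic amino acid and T3 transporter TAT1, was low, with 7.29 and 6.08 CPM in ATO and 3.12 and 4.900 CPM in control (0.74 ± 0.25, adjusted p = 0.126). Thus 2 barrier transporters of one family, Slco1c1 and Slco1a4, had log2 differences of opposite sign. The plasma carriers albumin (Alb) and thyroxine-binding globulin (Serpina7) were not analysed here.

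The activating enzyme gene Dio2 (ENSMUSG00000007682, chromosome 12 from 90724552 to 90738438, minus strand) had the second largest difference of the set. Its level was 117 and 120.04 CPM in ATO, against 76.7 and 54.1 CPM in control. The ATO libraries were within 1.03-fold of each other, the controls 1.42-fold apart, and the lower ATO library was 1.52-fold above the higher control. The log2 fold change was 0.86 ± 0.12, a 1.81-fold difference, with 1.13 without control replicate 1 and 0.62 without control replicate 2. The counting interval of the ratio ran from 1.72 to 1.92. The authors' deposited table gave a log2 fold change of 0.88 for Dio2.

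Dio2 was set beside the astrocyte markers, the cells in which it is best known. The summed level of the 13 markers was 6547 and 6872 CPM in ATO and 6743 and 6466 CPM in control, and their median log2 fold change was 0.016. Among them 1 rose, the connexin gene Gjb6 (0.44 ± 0.09, adjusted p = 0.0137), a call that ended without control replicate 2 and without ATO replicate 1, and 0 fell; Fgfr3, a growth factor receptor gene, missed the threshold at -0.29 ± 0.08 (adjusted p = 0.0510). Per 1000 CPM of the summed astrocyte markers, Dio2 had 17.8 and 17.5 CPM in ATO, against 11.4 and 8.37 CPM in control, a 1.79-fold difference that was about as large as that of Dio2 itself. Most of that sum came from 2 genes. Slc1a2 had 2164 and 2283 CPM in ATO and 2344 and 2052 CPM in control. Glul had 1922 and 1977 CPM in ATO and 1897 and 1883 CPM in control. Set against Slco1c1 on the FPKM scale, Dio2 was 1.34 and 1.32 times as high in ATO and 1.06 and 0.754 times as high in control. Of the 12 endothelial markers 1 rose, the glucose transporter gene Slc2a1 (0.68 ± 0.08, adjusted p = 0.000241), and 1 fell, the growth factor receptor gene Kdr (-0.63 ± 0.14, adjusted p = 0.0276), whose call ended under DESeq2's Wald test and in the fits lacking control replicate 1 or ATO replicate 2. The summed endothelial level was 447 and 439 CPM in ATO and 437 and 372 CPM in control.

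The sequences before the starts of Dio2, Klf9 and Slco1c1 are shown because these genes were higher together in ATO, and that of Thrb because it held the half-site to which the receptors bind. They come from RefSeq's GRCm38.p6 table, and 250 bases before each start were searched on both strands; windows of Ttr, Thra and Hr were not used here. The starts are RefSeq's, whereas the gene positions given with each gene are GENCODE's: RefSeq's start lies 600 bases upstream of the GENCODE gene for Dio2, 14 bases upstream for Slco1c1, at the same base for Klf9 and 699 bases inside the gene for Thrb. The letters searched were the thyroid hormone receptor half-site AGGTCA, its direct repeat AGGTCANNNNAGGTCA, the cAMP response element TGACGTCA, the GC box GGGCGG, the TATA box TATAAA and the CCAAT box CCAAT. The direct repeat contains the half-site. Among 32851 windows of the same length in the table, these occurred in 14.0%, 0.0152%, 1.55%, 32.7%, 12.4% and 33.8%. The Dio2 window (chr12:90739039-90739288, minus strand) held TGACGTCA from 95 bases before the start and TATAAA from 30 bases before it; an element of this kind is known from the human gene. The windows below read 5′ to 3′ on the gene's strand, with matches in capitals.
Dio2: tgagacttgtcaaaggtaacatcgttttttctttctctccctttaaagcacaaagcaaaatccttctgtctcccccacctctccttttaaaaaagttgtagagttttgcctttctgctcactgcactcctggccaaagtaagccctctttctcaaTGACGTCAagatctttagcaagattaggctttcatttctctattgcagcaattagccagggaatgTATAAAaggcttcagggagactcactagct
Klf9: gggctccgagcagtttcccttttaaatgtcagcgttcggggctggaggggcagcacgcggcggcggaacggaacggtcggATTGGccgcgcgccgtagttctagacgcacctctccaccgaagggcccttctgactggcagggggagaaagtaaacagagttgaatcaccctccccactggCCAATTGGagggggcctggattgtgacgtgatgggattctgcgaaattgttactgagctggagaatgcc
Slco1c1: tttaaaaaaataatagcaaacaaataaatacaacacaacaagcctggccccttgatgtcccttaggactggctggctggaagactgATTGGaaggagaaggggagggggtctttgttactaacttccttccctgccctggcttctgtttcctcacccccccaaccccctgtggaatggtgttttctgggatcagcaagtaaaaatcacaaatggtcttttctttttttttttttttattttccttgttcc
Thrb: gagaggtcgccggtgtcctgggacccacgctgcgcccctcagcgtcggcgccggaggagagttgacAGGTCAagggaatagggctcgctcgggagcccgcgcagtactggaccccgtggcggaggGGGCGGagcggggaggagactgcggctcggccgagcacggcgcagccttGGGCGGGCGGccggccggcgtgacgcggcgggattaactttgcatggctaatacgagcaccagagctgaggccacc

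Dio2, Klf9 and Slco1c1 are 3 of the 4 genes of the set that were higher in ATO, and their windows had no match common to all 3. Both Klf9 and Slco1c1 held CCAAT. Klf9 (chr19:23140976-23141225, plus strand) held CCAAT in 3 places, 2 of them overlapping on opposite strands from 69 and 66 bases before the start, in a window of 59.6% G and C. Slco1c1 (chr6:141524104-141524353, plus strand) held 1 reverse CCAAT, 164 bases before the start, at 42.8% G and C, and Dio2 stood at 41.6%, while the median of all windows was 52.4%. AGGTCA was found in the upstream window of Thrb (chr14:17660710-17660959, plus strand), 184 bases before the start, together with 3 GC boxes, of which the last 2 overlap, and its second listed start had a TATAAA 167 bases before it. The repeat with a spacer was in none of the 5 windows. These matches are letters in a window and were not tested as sites.

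Of 7 other measured genes of deiodination and selenocysteine incorporation, the step by which deiodinases receive their catalytic residue, 0 passed in edgeR's test and 1 had an unadjusted p under 0.05. That was Pstk, the gene of the kinase that prepares the selenocysteine transfer RNA, at 18.7 and 16.9 CPM in ATO and 23.1 and 23.9 CPM in control (-0.40 ± 0.12, adjusted p = 0.0833). Sephs2, which makes the selenium donor, and Sepsecs, the selenocysteine synthase, had values of -0.23 ± 0.11 and -0.24 ± 0.13 (adjusted p = 0.291 and 0.353). The inactivating deiodinase Dio3, chosen after its values were seen, had 5.91 and 6.44 CPM in ATO, against 7.33 and 8.28 CPM in control (-0.34 ± 0.19, adjusted p = 0.391). Of 4 genes of Dio2 protein turnover 0 passed and all 4 had negative values; Wsb1, which encodes the subunit that directs type 2 deiodinase to ubiquitination, was the lowest at -0.28 ± 0.08 (adjusted p = 0.0665), with 130 and 118 CPM in ATO and 148 and 151 CPM in control. The deubiquitinase genes Usp20 and Usp33 had -0.13 ± 0.09 and -0.06 ± 0.08. In both lists, then, the values stayed short of the threshold, and the median was -0.23 for the first and -0.09 for the second.

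The 2 receptor genes had nearly the same level in both groups. Thra (ENSMUSG00000058756, chromosome 11 from 98740638 to 98769006, plus strand) had 991 and 1011 CPM in ATO, against 1029.6 and 1069.6 CPM in control, so that both ATO libraries were lower. The difference was small, log2 -0.07 ± 0.07, with a counting interval of the ratio from 0.939 to 0.968, and it ranged from -0.09 to -0.04 over the alternatives run. Thrb (ENSMUSG00000021779, chromosome 14 from 17660261 to 18038090, plus strand) had 29.7 and 34.01 CPM in ATO, against 31.2 and 28.4 CPM in control. Its groups overlapped, and the log2 fold change was 0.10 ± 0.11, from -0.0031 to 0.19 over the alternatives. Per length, Thra was 53.4 and 47.7 times as high as Thrb in ATO and 52.9 and 60.5 times as high in control, ranges that overlap. The gene counts do not separate the receptor isoforms, including the Thra product that does not bind T3. Thra also overlaps the clock gene Nr1d1 on the opposite strand over 263 of its 4614 exonic bases (5.70%), and the sources used here do not say whether reads were counted by strand. Nr1d1 had 73.3 and 62.1 CPM in ATO and 67.9 and 65.2 CPM in control (0.03 ± 0.09).

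Of 12 receptor partners and cofactors, all measured, 0 passed in edgeR's test, and 3 had an unadjusted p under 0.05. Rxra, the gene of the retinoid X receptor with which thyroid hormone receptors pair, was at 0.29 ± 0.12 (adjusted p = 0.196), with 44.8 and 41.8 CPM in ATO and 39.9 and 30.9 CPM in control; it passed, at 0.49, in the fit lacking control replicate 1. Hdac3, the deacetylase of the receptors' corepressor complex, stood at -0.21 ± 0.08 (adjusted p = 0.176). The median of the 12 was 0.07.

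The response genes diverged. Klf9 (ENSMUSG00000033863, chromosome 19 from 23141226 to 23168134, plus strand), a zinc finger transcription factor induced by T3 and also by glucocorticoids, had 271 and 268 CPM in ATO, against 219.9 and 201 CPM in control. The groups were apart, the ATO libraries within 1.01-fold and the controls within 1.09-fold of each other, with a log2 fold change of 0.35 ± 0.08 (1.28-fold). It was 0.42 without control replicate 1 and 0.29 without control replicate 2. Hr (ENSMUSG00000022096, chromosome 14 from 70552212 to 70573548, plus strand), a corepressor gene directly induced by T3 in the developing rat brain, had 10.3 and 11.8 CPM in ATO, against 10.2 and 13.1 CPM in control. These overlapped, the log2 fold change was -0.08 ± 0.17, and its sign changed with the library left out, from -0.25 without control replicate 1 to 0.10 without control replicate 2. At 151 to 198 counts a library, Hr was the least counted gene of the set, and the counting interval of its ratio ran from 0.812 to 1.09.

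Among 10 other measured genes known to respond to thyroid hormone in brain or other tissue, 0 passed in edgeR's test, with a median log2 fold change of -0.03. The myelin gene Mbp and the neuronal gene Nrgn, classic targets in the developing brain, had values of -0.04 ± 0.07 and -0.01 ± 0.08, and were chosen after their values were seen. Thrsp, first known as a T3-induced gene of liver, was at 0.32 ± 0.10 (adjusted p = 0.109), with 40.1 and 42.4 CPM in ATO and 35.5 and 30.6 CPM in control. Dbp, which is also a clock output gene, was at -0.34 ± 0.12 (adjusted p = 0.160), and it passed, at -0.55, in the fit lacking ATO replicate 1. Ptgds, the prostaglandin D synthase gene, also made in meninges and choroid plexus, had 556 and 278 CPM in ATO and 334 and 213 CPM in control. Its groups overlapped (0.61 ± 0.23, adjusted p = 0.177), and it passed, at 1.025, in the fit lacking ATO replicate 2.

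Across the 5 lists of pathway genes outside the set, 40 of 43 genes were measured and 0 passed in edgeR's test, in limma-voom or in DESeq2's Wald test. An unadjusted p under 0.05 was found for 14 of the 40 in edgeR, 7 higher and 7 lower in ATO (35.0%, against 18.1% of all genes), and the groups were apart for 25 of the 40 (62.5%; 12 higher, 13 lower) against 48.1% of all genes. Their median log2 fold change was -0.02, and the values ran from -0.50 to 0.74. A p that misses the threshold does not show that a gene was the same in both groups.

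**Figure D4:**
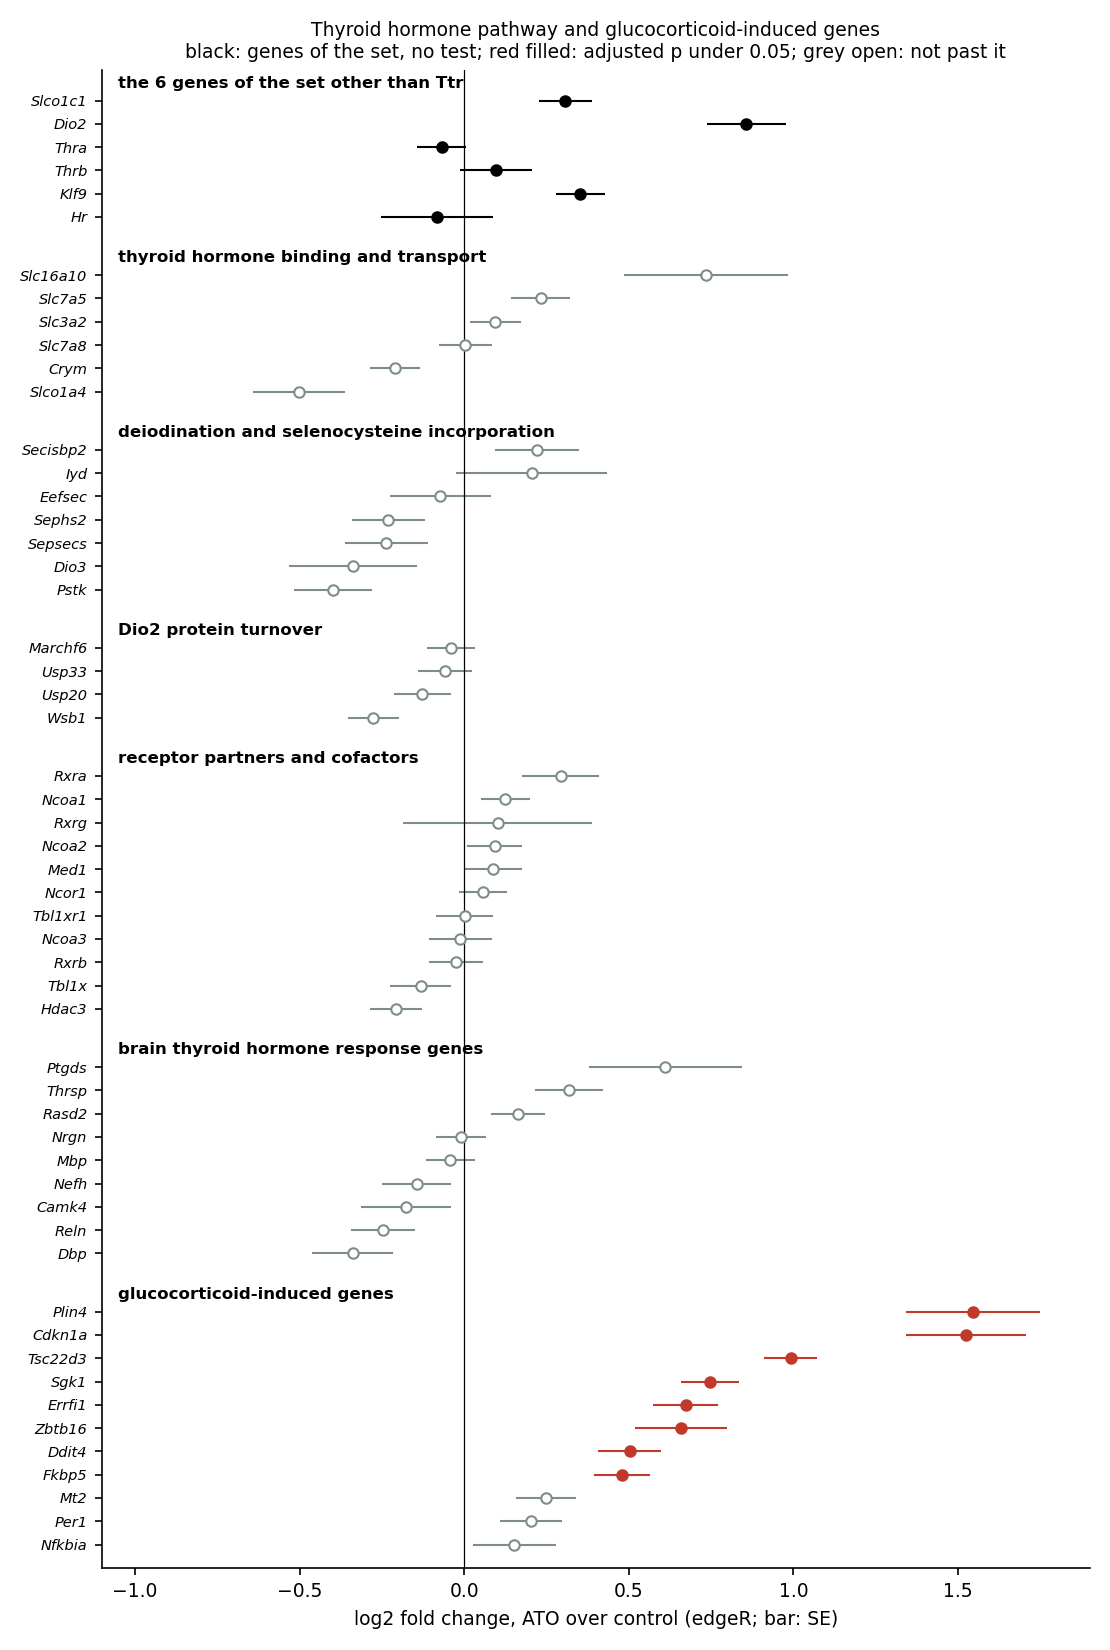
Log2 fold change of ATO over control with its SE for the 6 genes other than Ttr (black, described without a test), 37 of the 40 further thyroid hormone pathway genes in 5 lists, and 11 glucocorticoid-induced genes; red filled points have an adjusted p under 0.05 in edgeR's quasi-likelihood test, grey open points do not. Of the 5 pathway lists 4 lie on both sides of 0 and Dio2 protein turnover lies to the left of it, all with 0 red points, whereas 8 of the 11 glucocorticoid-induced genes are red and to the right.

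Because Klf9 also answers to glucocorticoids, 11 genes known to be induced by them were set beside it. These 11 were also chosen with earlier results of these data known, so the count that rose is not read as support. In edgeR's test 8 of the 11 rose and 0 fell, with a median of 0.66. Tsc22d3, which encodes the anti-inflammatory protein GILZ, had 121 and 125 CPM in ATO, against 59.6 and 64.2 CPM in control (0.99 ± 0.08, adjusted p = 2.84e-06). Fkbp5, a cochaperone of the glucocorticoid receptor, rose by 0.48 ± 0.09 (adjusted p = 0.00572), the smallest rise of the 8. All 8 lay above the 0.35 of Klf9, and the 3 that did not pass lay below it. The lipid droplet gene Plin4 rose by 1.55, the cell cycle inhibitor gene Cdkn1a by 1.52, the kinase gene Sgk1 by 0.75, the feedback inhibitor gene Errfi1 by 0.67, the zinc finger gene Zbtb16 by 0.66 and the mTOR inhibitor gene Ddit4 by 0.50. The other 3, Mt2 (metallothionein), Per1 (a clock gene) and Nfkbia (an NF-kB inhibitor), had values of 0.25 ± 0.09, 0.20 ± 0.09 and 0.15 ± 0.13. The count was 6 without control replicate 2. The part of glucocorticoid signalling in the level of Klf9 was not tested.

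Likeness of pattern was measured as the root mean square difference between centred log2 CPM profiles over the 4 libraries, among 13562 named genes with a mean of at least 1 CPM. The 4 genes most like Ttr were Tmem72 (difference 0.311), Folr1 (a folate receptor, 0.621), Mfrp (a frizzled-related membrane protein, 0.651) and Cldn2 (a claudin, 0.833). All 4 are in the choroid plexus list, which was chosen with earlier results of these data known. Tmem72, Folr1 and Cldn2 also entered the data through ATO alone, so their place near Ttr is not read as support. Tmem72 had 17.0 and 21.6 CPM in ATO, against 0.136 and 0.397 CPM in control. Among the nearest to Dio2 were Cgnl1 (the junction protein paracingulin, 0.0271), St6galnac2 (a sialyltransferase, ENSMUSG00000057286, 0.0528) and Antxr1 (an anthrax toxin receptor, 0.0563). Cgnl1 had 29.9 and 30.9 CPM in ATO, against 18.9 and 13.3 CPM in control, with the same order of the 2 controls as Dio2. Among the nearest to Klf9 were Samd4b (0.00654), Thsd4 (0.0118) and Pcyt1a (0.0118). With 4 libraries many genes share a profile, so nearness says only that the values run alike.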

How the data were processed

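Messenger RNA libraries from hippocampus, 2 ATO and 2 control, were analysed from 1 deposited table. Per the file headers it holds the count of reads per gene, FPKM values, and the authors' log2 fold change, p-value and adjusted p-value of ATO over control. The submitters' processing notes name the mouse build GRCm38, and, without their roles, HISAT2 (2.0.1), HTSeq (0.6.1), limma (3.47.15), FastQC (0.10.1) and cutadapt (1.9.1); settings, the use of strand and the gene lengths behind the FPKM values are not given there. Each of the 15713 genes had over 1 CPM in at least 2 libraries; genes below that are not analysed here.

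The main test on the deposited counts used edgeR 4.0.16 (R 4.3.3; filterByExpr, which removed 0 genes; TMM; quasi-likelihood test, no covariate; Benjamini-Hochberg adjusted p under 0.05). The SE is the log2 fold change divided by the square root of F. The common dispersion was 0.00513. Alternatives were DESeq2 1.42.0, limma-voom 3.58.1, other scalings, no filter, the replicate number as a block, and leaving out each library. Positions come from GENCODE M21 (99.9% of identifiers found) and promoters from RefSeq GRCm38.p6. The gene set and lists were chosen with earlier results of these data known. By rule, named genes were the 7 of the set and the 4 nearest in pattern to Ttr, Dio2 and Klf9. Of each pathway list they were those past the threshold and up to 3 others of smallest p. Of each marker list they were up to 2 of smallest p. A few genes chosen by this rule are left out here. Further genes, mainly hippocampal neuron and choroid plexus markers, were named after their values were seen. Intervals cover counting error only.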

Additional observations from a re-analysis of the deposited data

How the results depend on the processing

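Over 11 alternatives Ttr, Dio2, Slco1c1 and Klf9 stayed higher in ATO and Thra stayed lower, while Thrb and Hr changed sign when libraries were left out. The sizes ran from 5.39 to 6.98 for Ttr, 0.62 to 1.13 for Dio2, 0.28 to 0.34 for Slco1c1 and 0.29 to 0.42 for Klf9. These genes were chosen from this contrast, so no count of calls over the settings is read as support. The number of the 7 genes past the threshold was 2 to 3 when a library was left out. Over all genes 586 passed (451 higher, 135 lower); DESeq2's Wald test gave 316 (252 higher, 64 lower), and leaving out a library gave 222 to 611 (180 to 443 higher, 42 to 168 lower), with the lowest numbers without control replicate 2. Of the 40 thyroid pathway genes outside the set, 0 to 1 rose and 0 to 2 fell when a library was left out. Of these 40 and the glucocorticoid genes together, 8 passed, and 7 to 10 did when a library was left out.

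With the replicate number as a block, 1366 genes passed (890 higher, 476 lower), and of the 40 pathway genes 3 rose and 5 fell; of all 51 listed genes 17 passed. The labels do not say that a number pairs libraries, and the replicate differences of the 2 groups correlated at 0.0948 over 15466 genes, so the block is not used. The cause of these differences between settings was not tested. Counting error limits Hr most, at 151 to 198 counts a library.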

Other observations

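The control libraries were not equal in choroid plexus transcripts. Of the 20 markers other than Ttr, 13 were higher in control replicate 2 than in control replicate 1, with a median ratio of 1.30, while Ttr itself differed 3.03-fold. Folr1 was 13.7 times and Mfrp 6.83 times as high in control replicate 2, whereas Slc13a4, a sulfate and sodium cotransporter gene, was at 0.433 and Slc4a5 at 0.244 of the level in control replicate 1. In ATO 17 of the 20 were higher in replicate 2 than in replicate 1, with a median ratio of 1.22, close to the 1.26 of Ttr. The control ratios of the first 2 and of Slc4a5 rest on few counts in control replicates 1 and 2, at 1 and 14 for Folr1, 3 and 21 for Mfrp and 4 and 1 for Slc4a5. The markers with the most counts in control went both ways. Enpp2 (3013 counts summed over the controls) and Sulf1 (118) stood at 1.33 and 1.28. Kl (586), Slc13a4 (153) and Prlr (122) stood at 0.9499, 0.433 and 0.701.

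Dio2 ran the other way in control: it was higher in control replicate 1 (76.7 CPM), where Ttr was lower (20.4 CPM), than in control replicate 2 (54.1 CPM, where Ttr stood at 61.8 CPM). In ATO both were higher in replicate 2, Ttr 1.26-fold and Dio2 1.03-fold. Dio2 also lies beside Gm26512, a noncoding gene on the opposite strand that shares 100 exonic bases with it (1.72% of those of Dio2), and Gm26512 had 41 and 28 counts in ATO and 23 and 39 counts in control.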
